A study of Mus musculus with 16 samples.

Results

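The lysyl oxidases are 5 genes in the mouse, Lox, Loxl1, Loxl2, Loxl3 and Loxl4. They were taken by symbol from tables of mouse heart RNA, in which all 5 had a row in each of 2 experiments, among 38087 gene rows for experiment A and 54232 for experiment B. Experiment A held hearts of 86-week-old C57BL/6 females, 3 CAP2 -/- and 3 wild type. Experiment B held hearts of 13-week-old C57BL/6 mice that all carried the loxP allele on both copies. Of these, 4 also carried Cre under the Myh6 promoter, which acts in heart muscle cells (Cre+, 3 females and 1 male), and 5 carried no Cre (controls, 3 females and 2 males). The Cre transgene came together with the deletion of Cap2, so the effects of either cannot be told apart in experiment B. CAP2 is a protein that binds actin monomers and helps to turn actin filaments over, and the study's title places it in a dilated cardiomyopathy that runs through the MRTF and SRF transcription factors.

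Lysyl oxidases are secreted, copper-dependent amine oxidases. They oxidise lysines and hydroxylysines of collagen and elastin to aldehydes, which then condense into the covalent cross-links that make these fibres strong and insoluble. Lox and Loxl1 are made with a propeptide that is cut off outside the cell, while Loxl2, Loxl3 and Loxl4 carry scavenger receptor cysteine-rich domains ahead of the catalytic part. In the heart these enzymes are known as products mainly of fibroblasts and other matrix-forming cells, and cross-linked collagen is known to stiffen the wall.

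All 5 share a catalytic part at their carboxyl end with a copper site of closely spaced histidines. The codons of this site are shown for Loxl1 to Loxl4 because they are what marks these genes as 1 family, and because alike stretches bear on whether reads can be told apart. Each runs 5′ to 3′ on the coding strand over 33 bases, with the 4 histidine codons in capitals, and was read from the GENCODE M21 transcript of the gene (mm10).
Loxl1: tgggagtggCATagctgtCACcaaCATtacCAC
Loxl2: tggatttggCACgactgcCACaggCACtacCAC
Loxl3: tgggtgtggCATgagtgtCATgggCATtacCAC
Loxl4: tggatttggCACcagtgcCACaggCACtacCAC
The site spans an exon junction in each gene. It joins exons 3 and 4 of Loxl1 on the minus strand of chromosome 9 (58293720 to 58294381) and exons 10 and 11 of Loxl2 on the plus strand of chromosome 14 (69682316 to 69689037). It joins exons 10 and 11 of Loxl3 on the plus strand of chromosome 6 (83049995 to 83050125) and exons 11 and 12 of Loxl4 on the minus strand of chromosome 19 (42598807 to 42599899). Lox is left out of this comparison of sites. Among the 4 shown, Loxl2 and Loxl4 are identical at 31 of the 33 bases, while Loxl1 matches Loxl2 at 22, Loxl3 at 25 and Loxl4 at 21. Over whole transcripts, the longest run of bases shared by any of the 10 pairs of members is 32 bases, so reads longer than this differ between the genes.

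In the hearts of aged CAP2 -/- mice all 5 lysyl oxidase genes had fold changes above 1 by gene value, from 1.21-fold for Loxl3 to 2.57-fold for Lox. None passed an adjusted p of 0.05 in the count test (edgeR). At an unadjusted p of 0.05, 2 of the 5 passed, Lox and Loxl1, as did 10.4% of all genes tested. Over all 16297 genes tested, 220 (1.35%) passed the adjusted threshold, 137 of them (0.841% of all) with higher levels in CAP2 -/-, and 50.9% of all genes had a positive fold change. The direction of 5 genes of 1 family is therefore given here as a description.

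Lox, the founding member and the main cross-linker of fibrillar collagen and elastin, differed most. It measured 8.97, 10.4 and 6.68 CPM (the TMM-scaled count relative to the library's total over the genes tested) in CAP2 -/- replicates 1 to 3, against 1.62, 5.34 and 3.63 CPM in wild-type replicates 1 to 3. The groups did not overlap, which held for 7.6% of all genes tested in this direction. The log2 fold change was 1.36 (SE 0.36, 95% interval 0.57 to 2.15, edgeR adjusted p = 0.106). Single libraries and the choice of test decided the call. The adjusted p was 0.0172 without wild-type replicate 2 and reached 0.350 without CAP2 -/- replicate 2. DESeq2 on the same counts called Lox (log2 1.34, adjusted p = 0.0128; it called 2.24% of its genes), as did edgeR with no filter on low counts (1.34, 0.000196). Lox was likewise past the threshold in the authors' deposited table, at a log2 fold change of 1.31 with an adjusted p of 0.0118, where 2.61% of genes passed. The mean signal of Lox in that table, 186, is above every count deposited for it, and which counts that table rests on is not given in the sources used here. The deposited counts are few, with 99.1, 146 and 105 estimated counts in CAP2 -/- libraries and 44.6, 58.5 and 61.6 in wild type.

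**Figure D1:**
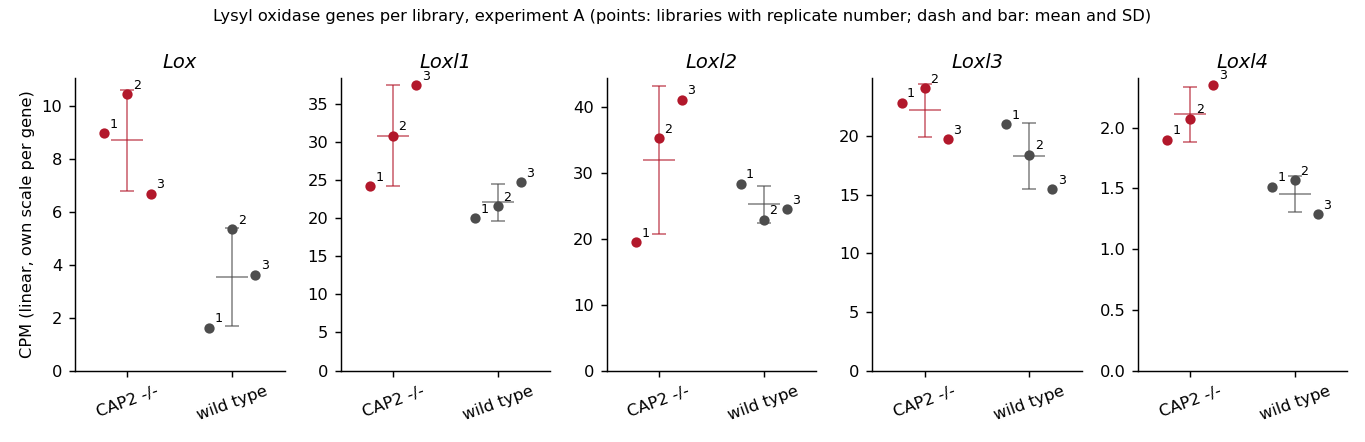
Levels of the lysyl oxidase genes in experiment A, in CPM on a linear axis of its own for each gene; points are libraries with their replicate number, dashes and bars the mean and SD (n = 3 each), with CAP2 -/- left of wild type. The groups are apart for Lox and Loxl4 and overlap for Loxl1, Loxl2 and Loxl3.

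A large part of the reads of Lox lay in its last exonic block, a stretch of 3165 bases that holds the stop codon and the 3′ untranslated part. That block held 63.6%, 76.8% and 67.7% of the exon reads in CAP2 -/- replicates 1 to 3, against 47.2%, 47.9% and 68.3% in wild-type replicates 1 to 3. In CPM of the unadjusted library total, it stood at 5.49, 8.001 and 4.46 in CAP2 -/- and at 0.765, 2.605 and 2.52 in wild type, a ratio of means of 3.05. The other blocks, which hold most of the coding part, gave 3.14, 2.42 and 2.13 CPM in CAP2 -/- and 0.856, 2.84 and 1.17 CPM in wild type, a ratio of 1.58. The groups did not overlap in the last block and did in the others, where wild-type replicate 2 lay above CAP2 -/- replicates 2 and 3. This split was not particular to Lox. Ratios in the last block and in the others were 1.66 and 1.29 for Loxl1, and 1.55 and 1.30 for Loxl4. They were 1.34 and 1.06 for Loxl2, and 1.41 and 1.42 for Loxl3. For Loxl1 and Loxl4, too, the groups were apart in the last block alone. How many of all genes share this split was not computed, and its cause was not tested. The table's own split of Lox into transcripts varied as well. The transcript with the longer 3′ end, ENSMUST00000171470, took 58.0% to 96.1% of the gene in CAP2 -/- and 36.3% to 69.0% in wild type, ranges that overlap.

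Loxl1, which is known for the upkeep of elastic fibres, measured 24.2, 30.8 and 37.5 CPM in CAP2 -/-, against 20.004, 21.6 and 24.7 CPM in wild type. CAP2 -/- replicate 1 fell just below the highest wild-type library, so the groups overlapped. The log2 fold change was 0.49 (SE 0.17, 95% interval 0.13 to 0.84, edgeR adjusted p = 0.239). Loxl2, a cross-linker of basement membrane and fibrillar collagen, measured 19.5, 35.3 and 41.1 CPM in CAP2 -/-, against 28.4, 22.9 and 24.5 CPM in wild type. CAP2 -/- replicate 1 was the lowest of the 6 libraries and the other CAP2 -/- libraries were the highest. Its log2 fold change of 0.34 (SE 0.23, 95% interval -0.18 to 0.86, edgeR adjusted p = 0.702) was 0.59 without that library (adjusted p = 0.0694) and 0.12 without CAP2 -/- replicate 3.

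Loxl3, whose loss in mice disturbs palate and spine development, measured 22.8, 24.1 and 19.7 CPM in CAP2 -/-, against 21.01, 18.4 and 15.5 CPM in wild type. The groups overlapped, with a log2 fold change of 0.28 (SE 0.16, 95% interval -0.07 to 0.62, edgeR adjusted p = 0.622). Its exon rows held 47.5% to 73.3% of its gene value, while for the other 4 genes they held at least 99.6%. In those rows its ratios of means were 1.41 in the last block and 1.42 in the others, above the 1.21-fold of the gene value. Those of Loxl2 were 1.34 and 1.06, so the rank of Loxl3 as the smallest change holds for the gene value only. The 3′ end of Loxl3 overlaps Htra2 on the other strand over 1297 bases (chromosome 6, 83051266 to 83052562). Whether the counting used strand is not given in the sources used here, so reads of Loxl3 and Htra2 in that stretch cannot be told apart. Lox and Loxl2 also overlap antisense genes in the annotation. Loxl4 was the lowest in CAP2 -/- libraries, at 1.90, 2.07 and 2.35 CPM, against 1.51, 1.57 and 1.29 CPM in wild type. The groups did not overlap, but at 16.9 to 42.5 estimated counts per library the log2 fold change of 0.54 had an SE of 0.38 (95% interval -0.26 to 1.34, edgeR adjusted p = 0.700).

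In young Cre+ hearts the lysyl oxidase transcripts stood further from their controls than in experiment A. Loxl1 rose 4.59-fold and Loxl3 rose 3.76-fold, and both passed an adjusted p of 0.05 over all genes (limma on log2 of the value plus 1, with sex as a term). Lox had the largest fold change of the 4 genes tested, at 9.66-fold, but missed the threshold, as did Loxl2 at 2.84-fold. Of all 12141 genes tested, 228 (1.88%) passed, 115 of them (0.947% of all) with higher levels in Cre+, against 2 of 4 lysyl oxidases. At an unadjusted p of 0.05 all 4 passed, as did 22.1% of all genes tested. The median gene stood at a log2 fold change of -0.12, and the median of the 4 members at 2.05. No difference between the experiments was tested, since age, library kit and normalization differ along with the genotype.

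Loxl1 measured 644, 790, 1457 and 660 normalized counts in Cre+ replicates 1 to 4, against 114, 260, 239, 66 and 341 in control replicates 1 to 5. Every Cre+ library lay above every control, as for 3.87% of all genes tested. The log2 fold change was 2.20 (SE 0.46, 95% interval 1.20 to 3.20, limma adjusted p = 0.0393). Loxl3 measured 229, 283, 455 and 98 in Cre+, against 41, 88, 84, 22 and 70 in controls. The groups again did not overlap, though Cre+ replicate 4, the male, came close to control replicate 2. The log2 fold change was 1.91 (SE 0.39, 95% interval 1.05 to 2.77, limma adjusted p = 0.0393). Htra2, which shares bases with Loxl3, had 82, 78, 103 and 49 normalized counts in Cre+, against 83, 68, 96, 87 and 97 in controls.

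Both calls rested on the whole set of libraries. Each was kept without control replicate 4, control replicate 5 or Cre+ replicate 1. Each was lost without any 1 of the other 6 libraries, with adjusted p of up to 0.156 for Loxl1 and 0.126 for Loxl3. The fold changes moved less, from 1.91 to 2.50 on the log2 scale for Loxl1 and from 1.64 to 2.18 for Loxl3.

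Lox measured 136, 788 and 1794 normalized counts in Cre+ replicates 1 to 3, against 30, 35, 42, 15 and 174 in control replicates 1 to 5. Cre+ replicate 4, at 34.5 normalized counts per kb of exon, lay between Cre+ replicate 1 at 28.5 and control replicate 5 at 36.4 on that scale. Cre+ replicates 2 and 3 lay far above all other libraries, and control replicate 5, a male, lay above Cre+ replicates 1 and 4. The log2 fold change was 3.27 (SE 0.83, 95% interval 1.46 to 5.08, limma adjusted p = 0.0687). Without control replicate 5 it was 3.84 (adjusted p = 0.00836), and without Cre+ replicate 1 it was 3.82 (0.0302). Among females alone it was 3.99 (0.0338). Without Cre+ replicate 3, the highest library, it was 2.63 (0.187).

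Loxl2 measured 122, 301, 537 and 97 in Cre+, against 42, 53, 114, 71 and 97 in controls. Cre+ replicate 4 equalled control replicate 5, and the log2 fold change of 1.51 (SE 0.49, 95% interval 0.43 to 2.58) had a limma adjusted p of 0.124. Loxl4 was nearly silent, at 6, 6, 10 and 3 in Cre+ and 1, 1, 11, 3 and 6 in controls. It fell short of the mean of 10 needed for the test, and with no filter on low values its log2 fold change was 0.68 (SE 0.63, limma adjusted p = 0.630).

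**Figure D2:**
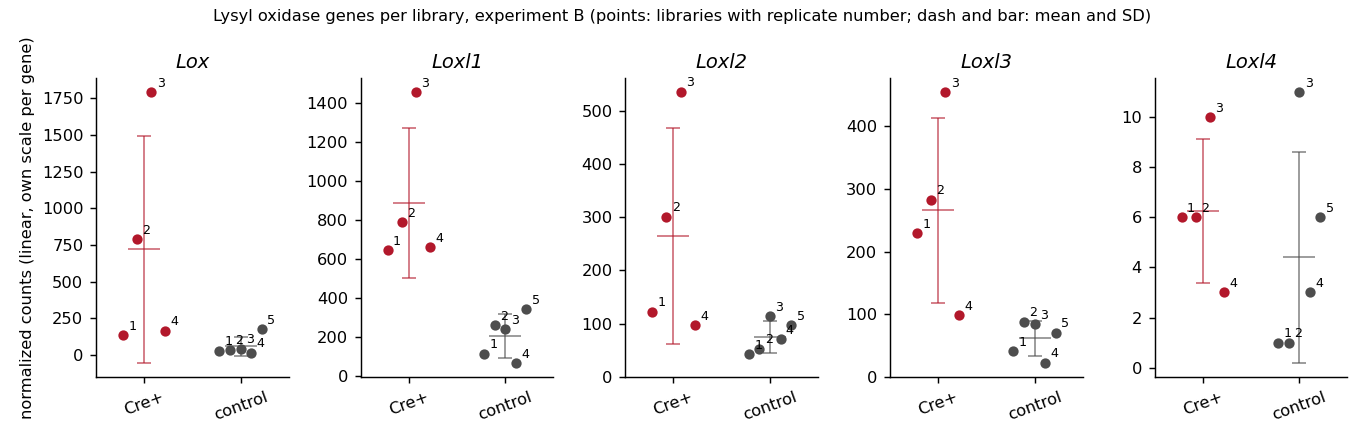
Levels of the lysyl oxidase genes in experiment B, in the authors' normalized counts on a linear axis of its own for each gene; points are libraries with their replicate number, dashes and bars the mean and SD, with Cre+ (n = 4) left of control (n = 5). Cre+ replicate 3 is the highest Cre+ library for all 5 genes, and the groups are apart for Loxl1 and Loxl3.

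**Figure D3:**
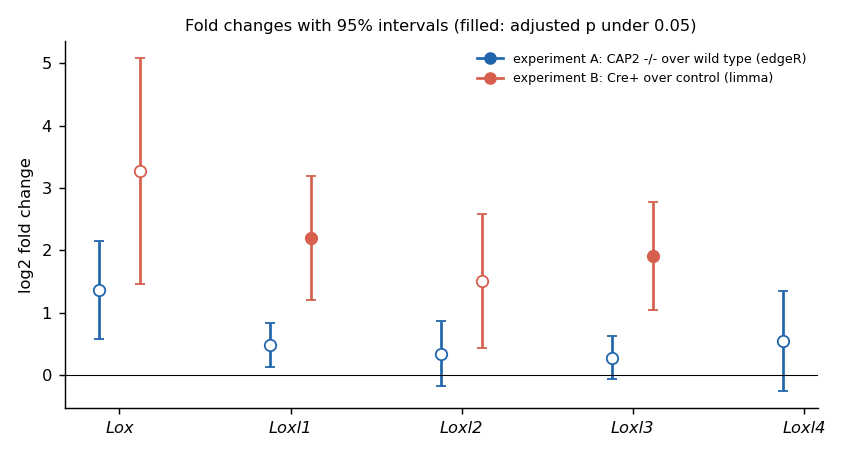
Log2 fold changes of the lysyl oxidase genes with 95% intervals, CAP2 -/- over wild type in blue and Cre+ over control in red, with a filled point where the adjusted p was under 0.05. Loxl1 and Loxl3 in experiment B are the filled points; Loxl4 was not tested in experiment B.

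The Cre+ libraries held the same order for several members. Cre+ replicate 3 was highest and Cre+ replicate 2 next for Lox, Loxl1, Loxl2 and Loxl3, with 1457 and 790 normalized counts of Loxl1 and 537 and 301 of Loxl2. The order was not particular to the members. Of the pathway genes described below, Adamts2, Bgn, Col1a2, Fbn1, Mfap4, Mt2, Pcolce, Postn and Tgm2 held it too. Ccn2, Ltbp2, Mfap5, P3h2, Prelp, Tgfb2 and Tgfb3 did not. Cre+ replicates 3 and 2 also had the lowest shares of mitochondrially encoded transcripts among Cre+, at 23.0% and 31.5%, against 52.7% and 33.9% in Cre+ replicates 1 and 4. Controls ran from 30.4% to 69.5%. With that share as a covariate, neither Loxl1 (log2 2.23, limma adjusted p = 0.144) nor Loxl3 (1.83, 0.165) passed. Lox was at 2.43 (SE 0.93, 0.288), against 3.27 without the covariate, and Loxl2 at 1.10 (SE 0.56, 0.379), against 1.51.

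To set members against each other, levels were divided by the length of their annotated exons. On this scale Loxl1 was the most abundant lysyl oxidase in all 15 libraries. That order depends on the length: in uncorrected shares Loxl1 led in 9 libraries, Loxl2 in 5 and Lox in 1, Cre+ replicate 3. Uncorrected, Loxl2 averaged 32.6% of the family in CAP2 -/- and 35.7% in wild type, and Loxl1 32.1% and 31.3%. Per kb of exon in experiment A, Loxl1 averaged 9.35 ± 2.01 CPM in CAP2 -/- and 6.70 ± 0.727 in wild type (SD, n = 3 each). Loxl2 followed with 5.92 ± 2.07 in CAP2 -/- and 4.68 ± 0.516 in wild type, and Loxl3 with 4.83 ± 0.490 and 3.98 ± 0.604. Loxl2 and Loxl3 lay within their spread of each other in both groups. The level of Loxl3 takes in gene value outside its exon rows, which held 47.5% to 73.3% of it. In wild type its last and other exonic blocks averaged 4.87 and 5.41 CPM of the unadjusted library total, over 1763 and 2433 bases. Those of Loxl2 averaged 15.5 and 10.1 CPM over 2794 and 2509 bases, so in wild type the closeness rests on that outside part. Family shares and sums carry the same limit. The Loxl1 range overlapped that of Loxl2 in CAP2 -/- (7.34 to 11.4 for Loxl1, 3.60 to 7.61 for Loxl2) and not in wild type (6.07 to 7.49 for Loxl1, 4.24 to 5.25 for Loxl2). Lox, at 1.82 ± 0.397 in CAP2 -/- and 0.739 ± 0.390 in wild type, and Loxl4, at 0.501 ± 0.0539 and 0.346 ± 0.0351, lay well below. In wild-type replicate 1 Loxl4 exceeded Lox.

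On the same scale in experiment B, Loxl1 averaged 269 ± 117 normalized counts per kb in Cre+ (SD, n = 4) and 61.9 ± 34.0 in controls (SD, n = 5). Lox averaged 151 ± 162 in Cre+ and 12.4 ± 13.6 in controls. Loxl3 averaged 57.8 ± 32.1 in Cre+ and 13.3 ± 6.20 in controls, and Loxl2 averaged 48.9 ± 37.6 and 13.95 ± 5.55. These 3 genes lay within their spread of each other in both groups. What part of the Loxl3 value lay outside exons in experiment B is not known. Loxl4 was lowest in all 9 libraries, at 1.48 ± 0.682 in Cre+ and 1.04 ± 1.001 in controls.

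The summed level of the family per kb of exon ran from 18.2 to 25.2 CPM in CAP2 -/- and from 16.3 to 16.6 CPM in wild type. Lox made up 10.3%, 9.18% and 5.54% of that sum in CAP2 -/- replicates 1 to 3, against 2.05%, 6.87% and 4.62% in wild-type replicates 1 to 3, so the ranges overlapped. In experiment B the sum ran from 275 to 1018 normalized counts per kb in Cre+ and from 41.8 to 174 in controls, with no overlap. Lox took 9.57%, 31.5%, 36.9% and 12.6% of it in Cre+ replicates 1 to 4, against 10.9%, 6.35%, 7.13%, 7.51% and 20.9% in control replicates 1 to 5, and the ranges overlapped. It was next after Loxl1 in Cre+ replicates 2, 3 and 4 and in control replicate 5, behind Loxl1 and Loxl3 in Cre+ replicate 1, and above Loxl4 alone in the other controls. Loxl1 took 43.4% to 72.9% in Cre+ and 47.9% to 68.4% in controls.

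**Figure D4:**
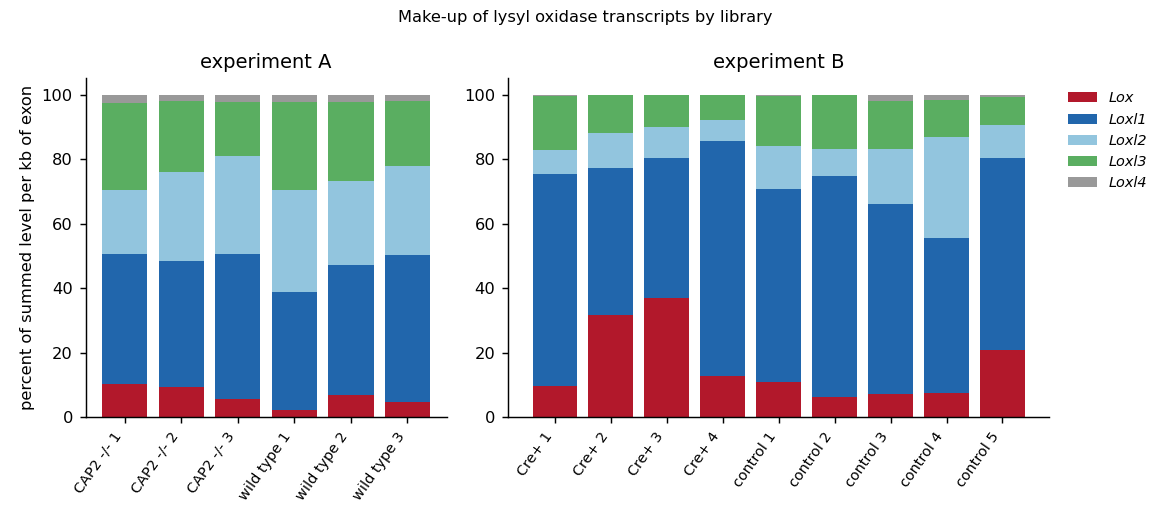
Make-up of the summed lysyl oxidase level per kb of exon, in percent, for each library of experiment A (left) and experiment B (right), with CAP2 -/- and Cre+ libraries left of their controls. Loxl1 is the largest part of every bar, and Lox takes 31.5% and 36.9% in Cre+ replicates 2 and 3.

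The genes with the profiles nearest to each member were found by the root mean square difference of centred log2 values. This is a description, over libraries that fall into 2 groups in each experiment. In experiment B, over 9 libraries, several of these neighbours encode matrix proteins. Nearest to Lox were Serpina3n, a secreted protease inhibitor (0.58), Eln, which encodes elastin (0.60), and the collagen gene Col1a1 (0.71). Nearest to Loxl1 were Bgn, a small proteoglycan (0.28), Igfbp7 (0.32) and S100a4 (0.32). Nearest to Loxl2 were 3 collagen genes, Col5a2 (0.27), Col3a1 (0.32) and Col5a1 (0.40). Nearest to Loxl3 were the fibrillin gene Fbn1 (0.36), Pcolce (0.39) and Igfbp7 (0.41). The profiles of Lox, Loxl1, Loxl2 and Loxl3 themselves spread by 2.12, 1.33, 1.09 and 1.28 on this scale. In experiment A, over 6 libraries, the nearest were C7, Nme3 and Clvs1 for Lox (0.27 to 0.28) and Pcbp3, Olfm1 and Rsu1 for Loxl1 (0.07 to 0.10). For Loxl2 they were Anln, Sox9 and Cd248 (0.06 to 0.11), for Loxl3 Slc25a40, Il20rb and Trim23, and for Loxl4 Snx32, Ctns and Mcm6. The 5 profiles spread by 0.21 to 0.79 in experiment A.

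The other genes of the cross-linking pathway were taken as 8 lists with 92 genes in all. Among CAP2 -/- hearts, 8 of the 82 genes tested rose and none fell in edgeR. DESeq2 called 13 of the pathway genes there, where it called 2.24% of all its genes. Among Cre+ hearts, 11 of 81 rose and none fell in limma. At an unadjusted p under 0.05 there were 25 of the 82 in experiment A, against 10.4% of all genes. In experiment B there were 42 of the 81, against 22.1% of all genes. Shares of higher calls over all genes were 0.841% in experiment A and 0.947% in experiment B, and the median log2 fold changes 0.0057 and -0.12.

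Many of these calls rested on all libraries. Bgn, Ltbp2, Mfap5 and Tgfb2 kept theirs in experiment A with any 1 library left out, and 4 to 7 of the 8 were kept in each case. Of the other 4, Prelp lost its call without wild-type replicates 1 or 2 or CAP2 -/- replicates 2 or 3 (edgeR adjusted p of up to 0.127). Mfap4 lost it without wild-type replicates 1 or 3 or CAP2 -/- replicate 3 (up to 0.0747), P3h2 without wild-type replicates 2 or 3 or CAP2 -/- replicate 3 (up to 0.134), and Ccn2 without CAP2 -/- replicates 1 or 3 (up to 0.0606). In experiment B all 11 were kept without control replicate 5 or Cre+ replicate 1, and 8 without control replicate 4. Without any 1 of the other 6 libraries 1 to 3 were kept, Tgfb2 among them each time (limma adjusted p of at most 0.0347), and the other 10 reached adjusted p of 0.0941 (Fbn1) to 0.218 (Mfap4).

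Of the substrates, no fibrillar collagen chain passed in either experiment among 8 tested, and DESeq2 called none in A. At an unadjusted p under 0.05 there were 2 of 8 in experiment A (10.4% of all genes) and 5 of 8 in experiment B (22.1% of all genes). The list's median log2 fold change was 0.018 in experiment A and 1.45 in experiment B. Col5a2, a chain of type V collagen, had the smallest p in experiment A, at 34.7 ± 4.00 CPM in CAP2 -/- and 24.4 ± 5.50 in wild type (log2 0.51, edgeR adjusted p = 0.206). Col1a2, a chain of type I collagen, had it in experiment B, at 4073 ± 3446 normalized counts in Cre+ and 858 ± 625 in controls (log2 2.17, SE 0.58, limma adjusted p = 0.0772). Set against the sum of Col1a1, Col1a2 and Col3a1, Loxl1 stood at 134, 80.5, 54.3 and 130 counts per 1000 in Cre+ replicates 1 to 4, against 99.4, 143, 83.7, 44.6 and 67.05 in control replicates 1 to 5. Lox stood at 28.4, 80.3, 66.9 and 32.5 per 1000 in Cre+ and at 26.2, 19.3, 14.7, 10.1 and 34.2 in controls. Eln, the elastin gene, had a log2 fold change of 3.57 in experiment B (limma adjusted p = 0.0559). Set against Eln, Lox stood at 103, 88.1, 85.0 and 76.3 per 1000 in Cre+ replicates 1 to 4. In control replicates 1 to 5 it stood at 82.0, 79.4, 65.9, 227 and 201. None of these ratios separated the groups.

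Elastic fibre genes gave calls in both experiments. Ltbp2, Mfap4 and Mfap5 rose in experiment A, as 3 of 15 tested, and the same 3 with Fbn1 rose in experiment B, as 4 of 15, while none fell. DESeq2 called Fbln2 besides those 3 in experiment A. Ltbp2, a microfibril-bound protein of the latent TGF-beta binder family, averaged 28.5 ± 6.58 CPM in CAP2 -/- and 4.01 ± 2.17 in wild type (log2 2.76, SE 0.34, edgeR adjusted p = 0.00393). In experiment B it averaged 619 ± 307 normalized counts in Cre+ and 67.0 ± 70.9 in controls (log2 3.74, SE 0.81, limma adjusted p = 0.0437). Mfap4, a microfibril-associated protein, averaged 39.8 ± 11.4 CPM in CAP2 -/- and 12.9 ± 3.798 in wild type (log2 1.65, edgeR adjusted p = 0.0107), and 1703 ± 1024 normalized counts in Cre+ and 233 ± 181 in controls (log2 3.09, limma adjusted p = 0.0477). Mfap5 had log2 fold changes of 1.11 in experiment A and 2.51 in experiment B. Fbn1, the core protein of microfibrils, averaged 1266 ± 620 normalized counts in Cre+ and 338 ± 94.1 in controls (log2 1.73, SE 0.31, limma adjusted p = 0.0247), and in experiment A its log2 fold change was 0.26 (edgeR adjusted p = 0.783).

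Among 12 genes for processing and docking of the enzymes, none of 11 tested passed in experiment A, and 3 of 10 tested rose in experiment B. In experiment A 7 of the 11 had an unadjusted p under 0.05, against 10.4% of all genes, and DESeq2 called Postn, Adamts2 and Fmod. Bmp1, which cuts the propeptide of Lox, was not among them. Postn, periostin, a matrix protein known to hold Bmp1 near its substrates, averaged 3039 ± 1764 normalized counts in Cre+ and 403 ± 382 in controls (log2 3.10, SE 0.65, limma adjusted p = 0.0407). In experiment A it averaged 201 ± 81.4 CPM in CAP2 -/- and 47.3 ± 7.71 in wild type (log2 2.09, SE 0.34, edgeR adjusted p = 0.0646). Pcolce, an enhancer of procollagen cutting by Bmp1, averaged 1323 ± 379 normalized counts in Cre+ and 418 ± 188 in controls (log2 1.69, limma adjusted p = 0.0432). Adamts2, which removes the amino-terminal propeptide of procollagen, averaged 708 ± 495 in Cre+ and 138 ± 97.7 in controls (log2 2.31, limma adjusted p = 0.0452), and was just short of the threshold in experiment A (log2 0.61, edgeR adjusted p = 0.0581). Pcolce had a log2 fold change of 0.27 in experiment A (edgeR adjusted p = 0.465).

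No gene of copper supply passed, among 8 tested in experiment A and 7 in experiment B. An unadjusted p under 0.05 was reached by none in experiment A and by 3 of 7 in experiment B, where 22.1% of all genes did. DESeq2 called none of them in experiment A. The smallest p values belonged to Ccs, a copper chaperone, in experiment A (log2 -0.24, edgeR adjusted p = 0.724) and to Mt2, a metallothionein, in experiment B (log2 3.39, SE 1.15, limma adjusted p = 0.143). The other cross-linking enzymes and amine oxidases gave no call among 4 tested in either experiment, by DESeq2 or edgeR in A or by limma in B. At an unadjusted p under 0.05 there was none in A and 1 of 4 in B, near the 22.1% of all genes. Aoc2 was at a log2 fold change of -1.04 in experiment A (edgeR adjusted p = 0.491), and Tgm2, the tissue transglutaminase, at 1.08 in experiment B (limma adjusted p = 0.118). Of the hydroxylases and chaperones that act on procollagen, P3h2, a prolyl 3-hydroxylase, rose in experiment A as 1 of 15, at 10.3 ± 3.35 CPM in CAP2 -/- and 4.02 ± 0.842 in wild type (log2 1.34, edgeR adjusted p = 0.0154). It was at 12.3 ± 4.35 normalized counts in Cre+ and 12.4 ± 8.35 in controls, and none of the 16 tested passed in experiment B, where 8 had an unadjusted p under 0.05, against 22.1% of all genes.

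Of the small proteoglycans that shape collagen fibrils, Bgn and Prelp rose in experiment A, as 2 of 8 tested, and Bgn rose in experiment B, as 1 of 8. DESeq2 called Fmod besides Bgn and Prelp in experiment A. Bgn, biglycan, averaged 731 ± 198 CPM in CAP2 -/- and 318 ± 26.2 in wild type (log2 1.20, SE 0.18, edgeR adjusted p = 0.00415). In experiment B it averaged 12169 ± 5348 normalized counts in Cre+ and 2779 ± 1702 in controls (log2 2.21, SE 0.50, limma adjusted p = 0.0488). Prelp averaged 137 ± 21.3 CPM in CAP2 -/- and 87.0 ± 7.80 in wild type (log2 0.65, edgeR adjusted p = 0.0178), and had a log2 fold change of 0.98 in experiment B (limma adjusted p = 0.342).

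Of 14 growth factors and transcription regulators reported to raise lysyl oxidase transcripts, Tgfb2 and Ccn2 rose in experiment A, and Tgfb2, Tgfb3 and Ccn2 rose in experiment B. None fell. The list did not move as a whole, with median log2 fold changes of 0.071 in experiment A and 0.12 in experiment B. Positive fold changes were held by 9 of 14 and 7 of 14. An unadjusted p under 0.05 was reached by 3 of 14 in experiment A (10.4% of all genes) and 5 of 14 in experiment B (22.1%). Tgfb2 measured 39.0 ± 7.41 CPM in CAP2 -/- and 9.04 ± 0.559 in wild type, and 228 ± 38.3 normalized counts in Cre+ and 39.4 ± 20.7 in controls. Tgfb3 measured 705 ± 226 normalized counts in Cre+ and 171 ± 97.8 in controls (log2 2.13, SE 0.42, limma adjusted p = 0.0328). In experiment A its log2 fold change was 0.90 (SE 0.21, edgeR adjusted p = 0.0726), and DESeq2 called it (adjusted p = 0.00281). Ccn2, a matricellular protein, measured 323 ± 42.9 CPM in CAP2 -/- and 84.6 ± 31.9 in wild type, and 6352 ± 3811 normalized counts in Cre+ and 828.8 ± 739 in controls.

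**Figure D5:**
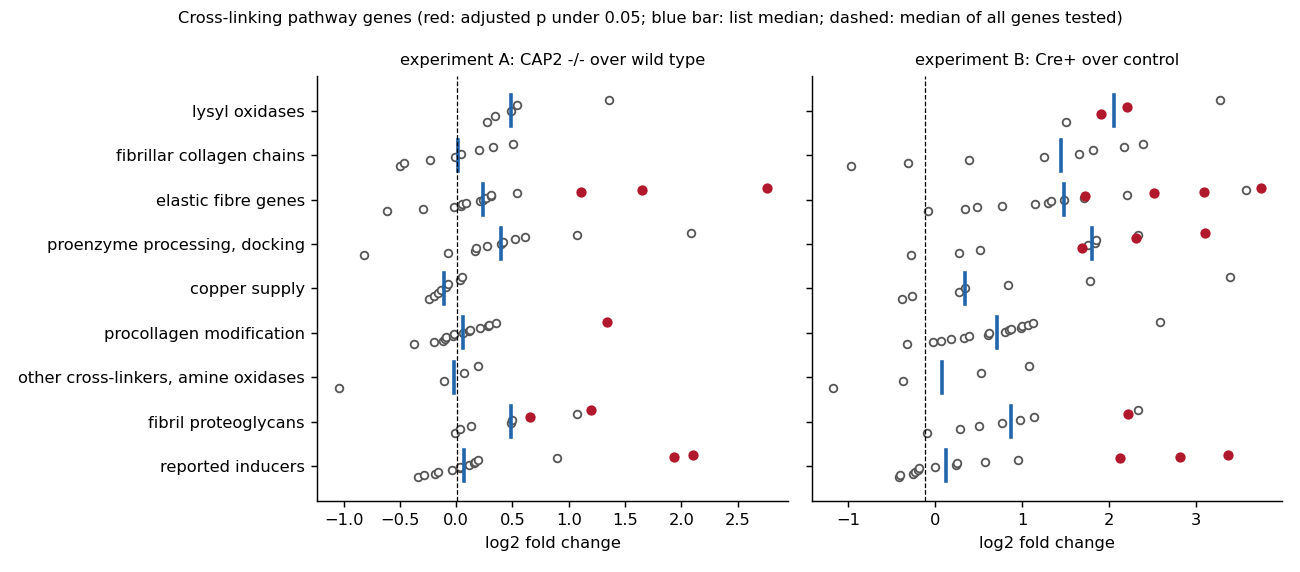
Log2 fold changes of the lysyl oxidases and of 8 lists of the cross-linking pathway, experiment A (CAP2 -/- over wild type) on the left and experiment B (Cre+ over control) on the right; red points had an adjusted p under 0.05, blue bars are list medians and dashed lines the median of all genes tested. The lysyl oxidase median lies at 0.49 in experiment A and at 2.05 in experiment B, and no red point lies below 0.

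Markers of the cells that make these enzymes moved in part with the groups. Of 10 fibroblast markers, Mfap5 and Wif1 rose in experiment A and Mfap5 in experiment B, and their summed level ran from 2795 to 3218 CPM in CAP2 -/- and from 2517 to 2782 CPM in wild type. In experiment B it ran from 23117 to 28926 normalized counts in Cre+ and from 7586 to 28582 in controls. Among the 10 fibroblast markers, Col1a1 and Mfap5 also belong to the lists of the cross-linking pathway. A covariate built on them holds part of the matrix change, so it cannot single out the number of fibroblasts. With the mean log2 level of the fibroblast markers as a covariate, the log2 fold change of Loxl1 in experiment B was 1.26 (limma adjusted p = 0.191) and that of Loxl3 was 1.17 (0.239). Lox was then at 1.93 (0.388) and Loxl2 at 0.83 (0.508). In experiment A the same covariate left Lox at 0.03 (SE 1.52), Loxl1 at -0.37 (SE 0.62), Loxl2 at 0.32 (SE 0.95), Loxl3 at 1.25 (SE 0.60) and Loxl4 at 0.36 (SE 1.51), with edgeR adjusted p of 1.00 for each. No smooth muscle and pericyte marker rose among 9 in either experiment, and Abcc9 fell in experiment B. The summed level of 7 atrial markers ran from 3865 to 4606 CPM in CAP2 -/- and from 121 to 165.4 CPM in wild type, and from 84047 to 175572 normalized counts in Cre+ and from 109 to 10503 in controls. Of these, Nppa and Dkk3 rose in experiment A and none passed in experiment B. With their mean log2 level as a covariate, Loxl1 had a log2 fold change of 1.29 (limma adjusted p = 0.846) and Loxl3 one of 1.38 (0.788). Since the atrial sums of the groups lay far apart, this fit can hardly separate the covariate from the group. Cap2 itself missed the threshold in it, so the lost calls say nothing about atrial content. The summed level of 8 skeletal muscle markers ran from 99.0 to 123 CPM in CAP2 -/- and from 45.6 to 63.1 CPM in wild type, with 2 of 7 tested rising. It ran from 2685 to 7985 normalized counts in Cre+ and from 243 to 663 in controls, with 5 of 6 rising. The summed level of 7 cartilage and valve markers ran from 52.5 to 60.1 CPM in CAP2 -/- and from 6.08 to 7.03 CPM in wild type, and from 991 to 1778 normalized counts in Cre+ and from 14 to 558 in controls. Only 2 of them were tested in experiment A, where Comp alone rose, and none of 4 tested passed in experiment B. The part of these skeletal muscle, cartilage and valve levels in the lysyl oxidase results was not tested. None of these markers was at 0 in all libraries of an experiment. In whole-heart RNA, a change in the number of cells of a type and a change in RNA per cell cannot be told apart. Cap2 itself averaged 12.2 ± 3.91 CPM in CAP2 -/- and 214 ± 15.7 in wild type, and 65.0 ± 24.2 normalized counts in Cre+ and 391 ± 288 in controls, without overlap in either experiment.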

How the data were processed

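For experiment A (Ion Total RNA-Seq libraries, per the labels' protocols) the authors deposited estimated counts per gene, exon and transcript, 10750175 to 27440478 per library over genes. Their deposited comparison gives a mean normalized signal, log2 fold changes, a test score and p-values per gene. For experiment B (stranded TruSeq libraries) the authors deposited normalized counts in whole numbers, a score here since the method is not stated; the depth behind them is unknown. The submitters' processing notes name mm10, STAR 2.6.0c and DESeq without a role. A further Cre+ library labelled male was not analysed here.

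The estimated counts of genes in experiment A were rounded to whole numbers for edgeR 4.0.16 under R 4.3.3, with TMM factors, the filterByExpr filter and robust quasi-likelihood fits. For experiment B, log2(value + 1) of genes averaging 10 or more went into limma 3.58.1, with trend and robust settings and a term for sex; this scale understates changes of low genes. P-values were adjusted by Benjamini-Hochberg over all genes tested, and DESeq2 1.42.0 was an alternative, as were shares of the family with no length correction. The SE in edgeR is the fold change divided by the root of F. Genes were matched by Ensembl identifier to GENCODE M21 (GRCm38), whose exons gave the lengths. The edgeR and limma fits were tested on simulated data. Named genes are the members, pathway genes called in either experiment, and the gene with the smallest p in a list with no call. The members, lists and alternatives were chosen with earlier results of these data known. The labels give each library its own number but do not state that each is a separate animal, so p-values measure the spread between these libraries, which may be technical in part. Replicate numbers were not shown to pair libraries, with correlations of same-numbered deviations of -0.17 to -0.03 in experiment A and -0.11 to 0.24 in experiment B. Libraries of different numbers were not compared in this way, so a pairing is not excluded. Libraries of a group in experiment A all differed beyond sampling noise. For experiment B this cannot be judged, since the depth behind the values is unknown.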

Additional observations from a re-analysis of the deposited data

Results flagged for a closer look

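The Lox value of control replicate 5 in experiment B, 174 normalized counts, lay far above the other controls, of which the next was at 42. Adamts2 stood out in the same library, at 309 normalized counts against 121 in the next control. These were 2 of 42 groups of libraries looked at in this way, and chance marks about 1 in 20. The other male control, replicate 4, had 15 counts of Lox. The Cre effect was not shown to differ between the sexes for any of the 4 lysyl oxidases tested (limma interaction term, adjusted p of 0.828 to 0.987, with 1 Cre+ male).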

How the results depend on the processing

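The members' log2 fold changes were positive under all alternatives tried, except that Loxl1 in experiment A was -0.37 with the fibroblast marker level as a covariate. Lox was then at 0.03 (SE 1.52) and Loxl3 at 1.25. That covariate, and the atrial one, were added after seeing the data. In experiment A the count of called genes, 220, was 394 with DESeq2, 512 with no filter on low counts and 7 with the fibroblast covariate, and Lox passed with DESeq2 (1.34) and with no filter (1.34). With 1 library left out the count ran from 126 to 275, Lox from 0.97 to 1.76, Loxl1 from 0.32 to 0.63, Loxl2 from 0.12 to 0.59, Loxl3 from 0.16 to 0.39, Loxl4 from 0.45 to 0.60 and Cap2 from -4.38 to -3.93. In experiment B the count, 228 (115 higher and 113 lower), was 346 with no filter on low values, 36 with the mitochondrial share, 9 with atrial and 33 with fibroblast covariates. TMM scaling gave 151 higher and 67 lower genes, and quantile normalization 211 and 124. Loxl1 missed the threshold with the mitochondrial share (2.23), atrial (1.29) and fibroblast (1.26) covariates, and Loxl3 with these (1.83, 1.38 and 1.17) and with no sex term (2.07). Lox passed among females (3.99). The replicate block, which the data do not show to be a true pairing and which also drops the unpaired control replicate 5, gave 394 genes and called Lox (3.84) and Loxl2 (1.67). Leaving out that library alone gave 525 genes and called Lox (3.84) but not Loxl2. In experiment A it changed no member's call. With 1 library left out the count ran from 39 to 695, Lox from 2.63 to 3.99, Loxl1 from 1.91 to 2.50, Loxl2 from 1.10 to 2.08, Loxl3 from 1.64 to 2.18 and Cap2 from -2.43 to -1.998. Cap2 missed the threshold in experiment B without control replicate 1 (adjusted p 0.0687) or Cre+ replicate 4 (0.0922). It also missed it with the fibroblast covariate in experiment A (-3.94), and with the atrial (-1.99) and fibroblast (-1.90) covariates in experiment B. Signs turned for P3h2 in experiment B (-0.26 to 0.88 with 1 library left out, negative without control replicate 2, and -0.16 with the fibroblast covariate), for Prelp in experiment B (-0.18 with the atrial and -0.38 with the fibroblast covariate) and for Ccs in experiment A (0.66 with the fibroblast covariate). The cause of these changes was not tested. Few reads limit Lox and Loxl4 in experiment A. The depth behind the low values of Loxl4 in experiment B is unknown.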
